A study of Eucalyptus globulus and Eucalyptus grandis with 36 samples.

Results

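The stems of Eucalyptus globulus and Eucalyptus grandis seedlings grown at 10 °C in elevated CO2 were compared with each other, gene by gene, and with the stems of the same species at 20 °C in ambient CO2. The genes compared were those that the authors had selected in both species as changed between these conditions. A gene was kept when it stood both in the authors' E. globulus table and in their E. grandis table, joined on the gene identifier, and 461 of the 11827 genes in the 8 deposited tables met that rule. These 461 genes were 13.7% of the 3372 genes in the E. globulus table and 29.7% of the 1551 genes in the E. grandis table. The species difference was the E. globulus value minus the E. grandis value at 10 °C in elevated CO2. It was read beside the change of each species from its own control.

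The main groups were E. globulus at 10 °C in elevated CO2, E. grandis at 10 °C in elevated CO2, E. globulus at 20 °C in ambient CO2 and E. grandis at 20 °C in ambient CO2, and the last pair are called the controls here. Each of the 12 groups of the study, made of 2 species, 3 temperatures and 2 CO2 levels, had 3 samples out of 36. The plants were seedlings raised from clonal seed, about 6 months old and 25 cm tall per the protocols, and treatment in climate chambers lasted 35 days, with a 10 h day at 280 µmol per square metre and second. The titles give 10, 20 and 30 °C, for which the protocols have ranges of 10 to 12, 22 to 24 and 33 to 35 °C. The elevated level of CO2 was 700 ppm and the ambient level 390 ppm per the protocols, or 400 ppm per the design text. That text also describes the plants as 35 days old, and no label states that the 3 samples per group were separate plants.

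The deposited tables give 1 normalised log2 value per gene and group, with no value per sample, no p-value and no read count. No standard deviation, interval or depth can therefore be given, and a species difference is a description of 2 group values with no replicate check. The species difference at 10 °C in elevated CO2 was never tested by the authors in these tables, whereas the change within each species passed their test at a corrected p of 0.05 and a fold of at least 2. The gene identifiers belong to the E. grandis annotation, and the way E. globulus reads were assigned to them was not given in the sources used here. Fewer transcripts in E. globulus and fewer E. globulus reads matched to an E. grandis gene cannot be told apart in a species difference. The change within a species does not compare reads across species. Low temperature, added CO2 and the growth chamber cannot be told apart within it. Fewer cells of a type and less RNA per cell cannot be told apart in these whole stems.

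Eucalypt stems lay down wood, in which phenylalanine is turned into monolignols that laccases and peroxidases join into lignin in the cell wall. The same phenylpropanoid route feeds flavonols and anthocyanins, whose genes are switched by MYB transcription factors. Chilling is known in plants to act through C-repeat binding factors (CBFs), and under light it is known to raise protective chlorophyll-binding proteins and to lower antenna proteins. E. grandis comes from warmer regions than E. globulus and is the less cold-hardy of the pair. The roles given below are those known for the Arabidopsis proteins whose names the descriptions in the files carry.

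In most of the 461 genes both species moved the same way. Chlorophyll A-B binding family proteins, laccases and MYB factors were among the genes that rose in both species, and antenna proteins of the photosystems, galactinol synthases and wall-associated kinases were among those that fell in both. The number that rose in both species was 193 (41.9%) and the number that fell in both was 214 (46.4%). Thus 407 genes, or 88.3%, changed in the same direction. A rise in E. globulus with a fall in E. grandis was found in 49 genes, and the reverse in 5. As background, 55.5% of all genes in the E. globulus table were higher at 10 °C in elevated CO2 and 44.5% were lower, against 29.9% higher and 70.1% lower in the E. grandis table. These directions come from the values that chose the genes and are given as a description.

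**Figure D1:**
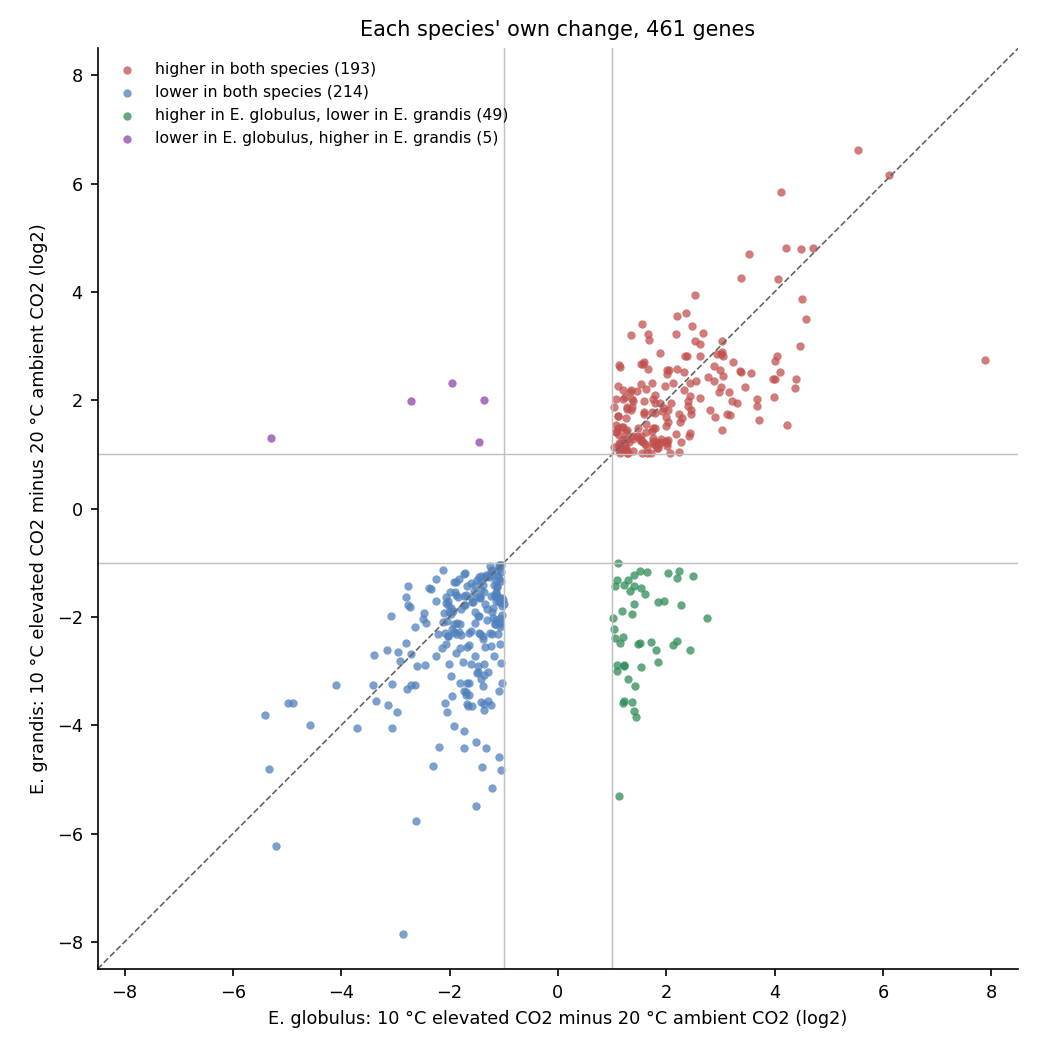
Change of each of the 461 genes from 20 °C in ambient CO2 to 10 °C in elevated CO2, in E. globulus (horizontal axis, log2) and in E. grandis (vertical axis, log2), with 1 point per gene coloured by direction and the dashed line marking equal changes. Of the genes that fell in both species, 148 of 214 lie below the line, where the fall was larger in E. grandis, and 49 genes lie in the lower right corner.

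The sizes of the changes differed more among the falling genes than among the rising ones. The 193 genes that rose in both species had a median change of 1.93 in E. globulus and 1.90 in E. grandis on the log2 scale, and the rise was larger in E. globulus in 109 of them. The 214 genes that fell in both had a median change of -1.62 in E. globulus and -2.13 in E. grandis, and the fall was larger in E. grandis in 148 of them. Over all 461 genes the E. globulus change exceeded the E. grandis change by at least 1 in 137 genes (29.7%) and was below it by at least 1 in 28 genes (6.07%). The median of the difference between changes was 0.36.

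At 10 °C in elevated CO2 more of these genes stood higher in E. globulus than stood higher in E. grandis. The species difference was at least 1 on the log2 scale, a fold of 2, in 124 genes (26.9%) and at most -1 in 52 genes (11.3%), while 285 genes lay within 1. Its median was 0.30, and it ran from -9.87 to 4.85 among the genes with no group at 0. In the controls the same genes leaned the other way, with 55 genes (11.9%) at least 1 higher in E. globulus, 109 genes (23.6%) at least 1 lower in E. globulus and a median of -0.13. The difference at 10 °C in elevated CO2 is by construction the control difference plus the difference between the changes.

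The lean towards E. grandis in the controls was wider than these genes. Over the 2453 genes with a control value in both species, 18.2% were at least 1 higher in E. globulus and 42.1% at least 1 lower, with a median of -0.57. Leaving out the table in which the authors selected genes for a difference between the species, 1735 genes remained, of which 9.51% were at least 1 higher in E. globulus and 39.0% at least 1 lower, with a median of -0.53. If that shift of 0.57 is taken off every species difference, 203 genes stand at least 1 higher in E. globulus and 29 at least 1 lower at 10 °C in elevated CO2, and 116 and 71 in the controls. The counts for the changes within each species do not use this shift.

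**Figure D2:**
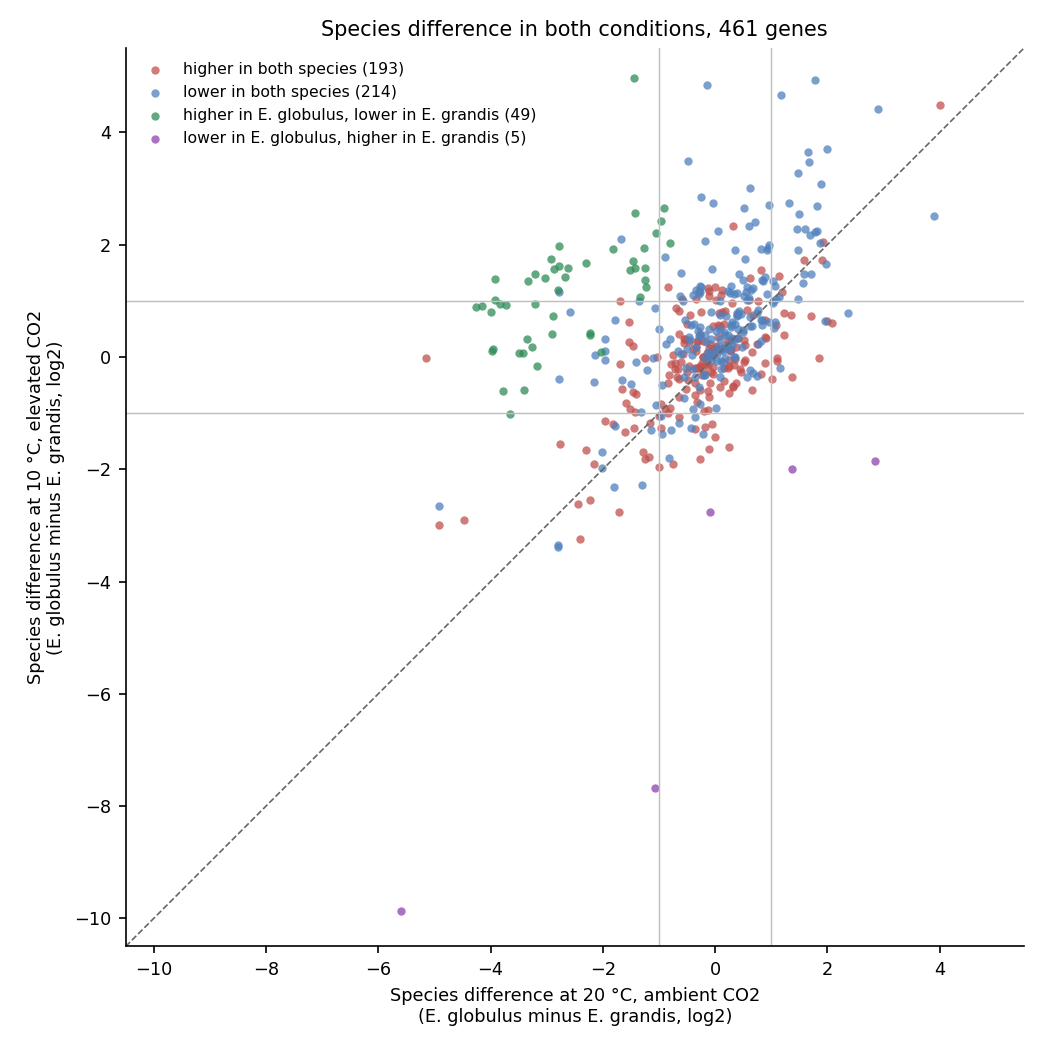
Species difference of the 461 genes (E. globulus minus E. grandis, log2) at 20 °C in ambient CO2 on the horizontal axis and at 10 °C in elevated CO2 on the vertical axis, with 1 point per gene, grey lines at 1 and -1 and the dashed line marking an equal difference. The 49 genes that rose in E. globulus and fell in E. grandis stand left of 0, and 46 of them are at or below -1 in the controls.

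A species difference of the controls was often not the difference found at 10 °C in elevated CO2. Among the 109 genes at least 1 lower in E. globulus in the controls, 30 still differed that way, 52 came within 1 and 27 were at least 1 higher in E. globulus. Among the 55 genes at least 1 higher in E. globulus in the controls, 34 still differed that way, 19 came within 1 and 2 were at least 1 lower. Of the 124 genes at least 1 higher in E. globulus at 10 °C in elevated CO2, 75 had fallen in both species, 28 had risen in E. globulus and fallen in E. grandis, and 21 had risen in both. Of the 52 genes at least 1 lower in E. globulus, 29 had risen in both species, 17 had fallen in both, 5 had fallen in E. globulus and risen in E. grandis, and 1 had done the reverse. The genes next to the threshold were a mechanosensitive channel (Eucgr.C03563) at 1.01 and an antenna protein (Eucgr.K02983) at 1.01, with a wound-responsive protein (Eucgr.F03361) at 1.00 and a BRI1-associated receptor kinase (Eucgr.A02280) at 1.00 just under it. On the other side Eucgr.H00923 stood at -1.02 and Eucgr.A00656 at -1.05, with a Major facilitator superfamily protein (Eucgr.K00179) and an MLO family protein (Eucgr.I02212) each at -0.99.

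The 49 genes that rose in E. globulus and fell in E. grandis included genes known from stress and immune signalling, and most stood higher in E. grandis in the controls. Among the 35 with a description were C-repeat/DRE binding factor 2, RPM1 interacting protein 4, an exocyst subunit, U-box ubiquitin ligases, MAP kinase kinase kinases, NAC and WRKY factors and senescence-associated gene 21. In the controls 46 of the 49 were at least 1 lower in E. globulus and none at least 1 higher, with a median of -2.88. At 10 °C in elevated CO2, 28 were at least 1 higher in E. globulus, 20 lay within 1 and 1 was at least 1 lower, with a median of 1.25. A rise of at least 1 in one species and a fall of at least 1 in the other sets the difference between changes at 2 or more, so that these shifts follow from the choice. The species were closer to each other at 10 °C in elevated CO2 than in the controls in 35 of the 49, against 215 of the 461 (46.6%).

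C-repeat/DRE binding factor 2 (Eucgr.D01925), which switches on cold-response genes, stood at 8.37 in E. globulus and 7.43 in E. grandis at 10 °C in elevated CO2. Its controls were 7.14 in E. globulus and 10.98 in E. grandis, so the E. grandis control was the highest of the 4 values. A GH3 family gene (Eucgr.D02349), whose family joins auxin and related hormones to amino acids, had 11.60 in E. globulus and 11.52 in E. grandis at 10 °C in elevated CO2, against 9.75 in E. globulus and 13.24 in E. grandis in the controls. The species were thus 0.08 apart in the first condition and 3.49 apart, with E. grandis higher, in the second.

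Exocyst subunit exo70 H7 (Eucgr.B02411), part of the complex that tethers secretory vesicles to the plasma membrane, showed the same order. It reached 10.47 in E. globulus and 9.67 in E. grandis at 10 °C in elevated CO2, against 9.27 in E. globulus and 13.27 in E. grandis in the controls. RPM1 interacting protein 4 (Eucgr.H00779), a plasma membrane regulator of immunity, had 6.89 in E. globulus and 5.99 in E. grandis at 10 °C in elevated CO2, against 4.46 in E. globulus and 8.60 in E. grandis in the controls. E. globulus was thus 0.81 and 0.90 higher in these genes at 10 °C in elevated CO2, and 3.99 and 4.15 lower in the controls.

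The Reticulon family gene Eucgr.K01437, whose family shapes the endoplasmic reticulum, had the largest difference between changes of the 47 such genes with no group at 0. It rose by 1.45 in E. globulus and fell by 3.85 in E. grandis. CRINKLY4 related 3 (Eucgr.G03061), a receptor kinase, rose by 1.37 in E. globulus and fell by 3.57 in E. grandis. An undescribed gene, Eucgr.F02277, rose by 1.41 in E. globulus and fell by 3.74 in E. grandis. Species differences at 10 °C in elevated CO2 were small beside these changes, at 1.39 for Eucgr.K01437, 1.02 for Eucgr.G03061 and 0.89 for Eucgr.F02277.

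Other signalling genes of the 49 kept this pattern. The U-box ligases plant U-box 23 (Eucgr.A02581) and plant U-box 29 (Eucgr.F02720), which mark proteins for breakdown, were 0.94 and 0.18 higher in E. globulus at 10 °C in elevated CO2, while their controls differed by -3.20 and -3.26. Both genes described as MAP kinase kinase kinase 19 were among them. Eucgr.I00915 stood at 8.41 in E. globulus and 5.99 in E. grandis at 10 °C in elevated CO2, and the neighbouring Eucgr.I00914 at 9.07 in E. globulus and 8.96 in E. grandis. NAC factors Eucgr.I00100 and Eucgr.I00059 differed by 1.55 and 0.41 at 10 °C in elevated CO2 and by -1.52 and -2.90 in the controls. The WRKY factor Eucgr.E04011 differed by 0.08 at 10 °C in elevated CO2 and by -2.03 in the controls. Hydroxymethylglutaryl-CoA reductase 1 (Eucgr.H05007), which makes mevalonate for isoprenoids, differed by 0.31 at 10 °C in elevated CO2 and by -3.35 in the controls.

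The E. globulus values of these genes were above the control in most other groups that list them. The genes were chosen with this same control value, and a count above it is partly set by that choice, as it is for the 193 genes that rose in both species. Among the 45 of the 49 listed at 30 °C in ambient CO2, all 45 stood above the control there, with a median difference of 2.67. All 41 of those listed at 30 °C in elevated CO2 stood above the control, 43 of 45 did at 10 °C in ambient CO2 and 29 of 32 at 20 °C in elevated CO2. For the genes that rose in both species the corresponding counts were 74 of 163 at 30 °C in ambient CO2, 59 of 70 at 30 °C in elevated CO2, 163 of 163 at 10 °C in ambient CO2 and 42 of 47 at 20 °C in elevated CO2. In E. grandis few of the 49 are listed elsewhere. All 7 listed at 30 °C in elevated CO2 stood below the E. grandis control, and 3 of 5 did at 10 °C in ambient CO2, against 40 of 48 and 67 of 67 among the genes that fell in both species. The part of the control groups in this pattern was not tested, since each group has 1 value.

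The 5 genes that fell in E. globulus and rose in E. grandis included a sesquiterpene synthase gene and a TIR domain gene. Terpene synthase 21 (Eucgr.F03412) stood at 0.29 in E. globulus and 7.97 in E. grandis at 10 °C in elevated CO2, against 5.60 in E. globulus and 6.67 in E. grandis in the controls. Its species difference went from -7.68 to -4.81 with 8 added on the linear scale. E. globulus values for this gene were also low at 10 °C in ambient CO2 (0.82), at 30 °C in ambient CO2 (0.34) and at 30 °C in elevated CO2 (0.42), while at 20 °C in elevated CO2 the value was 4.37. An undescribed gene, Eucgr.G01608, had the widest species difference of the 461, at 2.20 in E. globulus and 12.06 in E. grandis at 10 °C in elevated CO2, against 4.15 in E. globulus and 9.75 in E. grandis in the controls. In every E. globulus group listed for it the value was below 5, and E. grandis was 9.87 higher at 10 °C in elevated CO2 and 5.60 higher in the controls.

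The TIR domain gene (Eucgr.A00258) is named after a domain that some intracellular immune receptors carry. It had 4.65 in E. globulus and 7.41 in E. grandis at 10 °C in elevated CO2. Its controls were 6.10 in E. globulus and 6.19 in E. grandis. The species thus started 0.09 apart and ended 2.76 apart. The undescribed Eucgr.E00974 had 0.40 in E. globulus and 2.25 in E. grandis at 10 °C in elevated CO2, against 3.11 in E. globulus and 0.27 in E. grandis in the controls. The fifth gene, a RING/U-box protein (Eucgr.K03145), was listed at 0 in E. globulus at 10 °C in elevated CO2 and in the E. grandis controls.

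**Figure D3:**
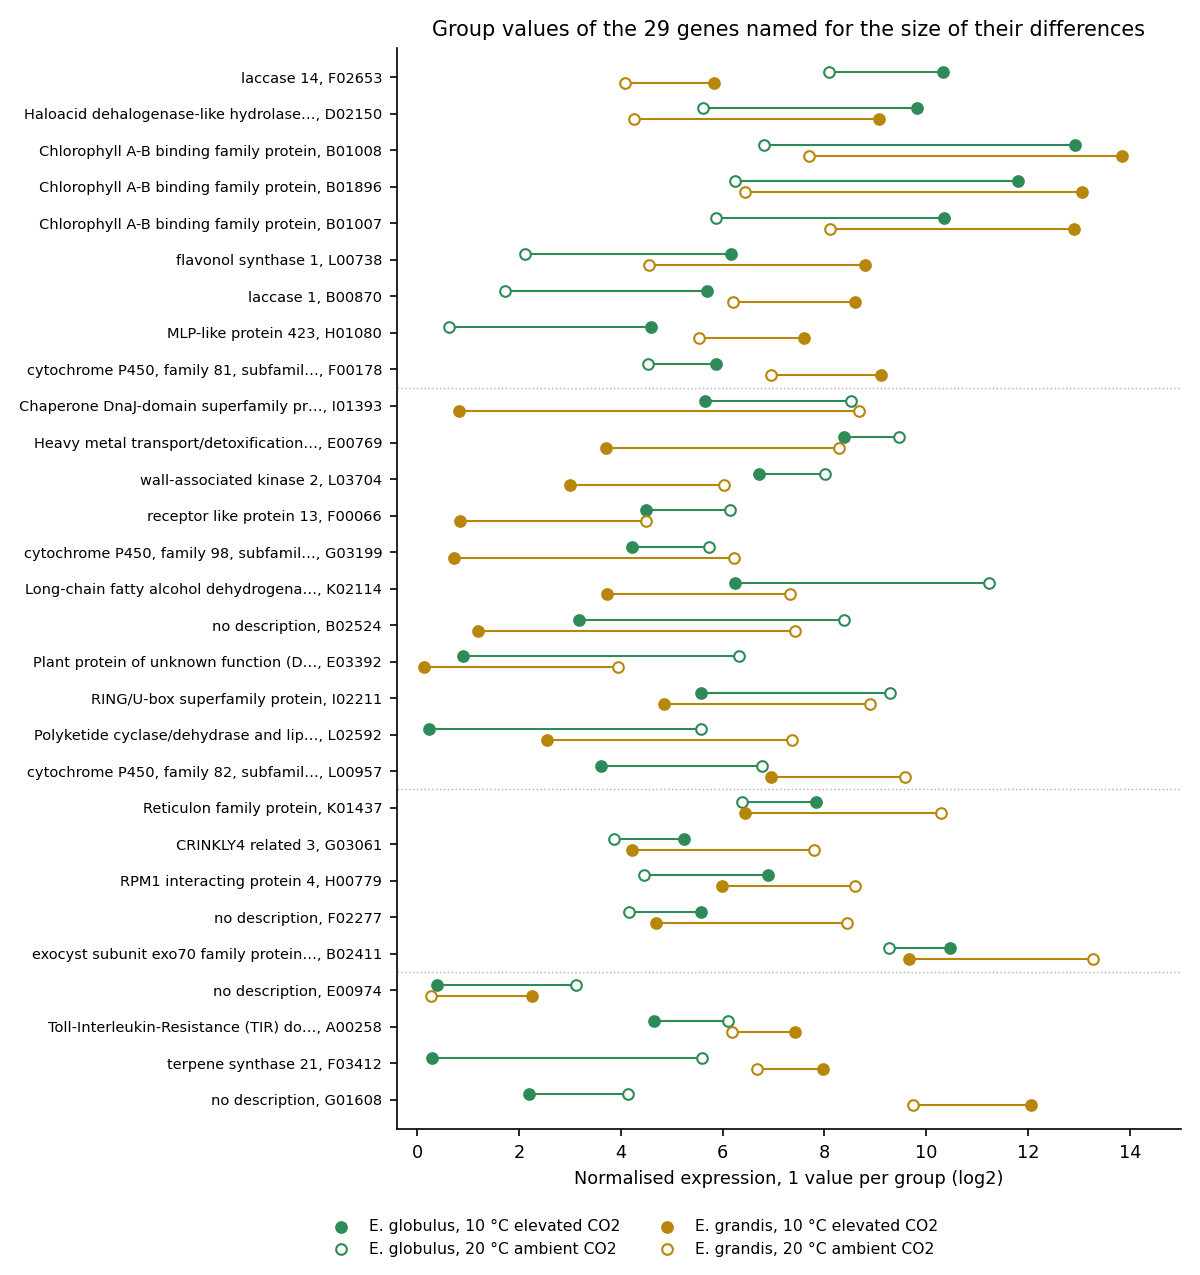
Normalised log2 value of 29 genes in the 4 groups, with filled circles for 10 °C in elevated CO2, open circles for 20 °C in ambient CO2, green for E. globulus and ochre for E. grandis, and dotted lines between genes that rose in both species, fell in both, rose in E. globulus while falling in E. grandis, and did the reverse. Laccase 14 (Eucgr.F02653) keeps a wide gap between species in both conditions, whereas the DnaJ-domain chaperone (Eucgr.I01393) separates only in the filled circles.

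Of the 6 described genes with no group at 0 and the widest positive differences, 5 had fallen in both species, further in E. grandis than in E. globulus, and the other is a laccase gene described below. A DnaJ-domain chaperone gene (Eucgr.I01393), of a family that helps proteins fold, stood at 5.66 in E. globulus and 0.82 in E. grandis at 10 °C in elevated CO2, against 8.53 in E. globulus and 8.68 in E. grandis in the controls. It fell in both species, by 2.86 in E. globulus and 7.86 in E. grandis. A heavy metal transport/detoxification gene (Eucgr.E00769) had 8.38 in E. globulus and 3.71 in E. grandis at 10 °C in elevated CO2, against 9.47 in E. globulus and 8.29 in E. grandis in the controls. Receptor like protein 13 (Eucgr.F00066) had 4.49 in E. globulus and 0.85 in E. grandis, with controls of 6.15 in E. globulus and 4.50 in E. grandis. The fall in these genes was larger in E. grandis by 5.00 for Eucgr.I01393, 3.49 for Eucgr.E00769 and 1.99 for Eucgr.F00066. The E. grandis values of Eucgr.I01393 and Eucgr.F00066 lie near the floor of 0, so the sizes depend on low values. With 8 added on the linear scale, the species difference went from 4.85 to 2.59 for Eucgr.I01393 and from 3.65 to 1.64 for Eucgr.F00066. For Eucgr.E00769 it went from 4.67 to 4.01.

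The 6 heavy metal transport/detoxification genes fell in both species, with 2 at least 1 higher in E. globulus at 10 °C in elevated CO2 and 1 at least 1 lower. Of the 461 genes, 46.4% fell in both species, 26.9% were at least 1 higher in E. globulus and 11.3% at least 1 lower. In contrast to the gene above, Eucgr.E00663 was lower in E. globulus, at 4.87 in E. globulus and 7.53 in E. grandis at 10 °C in elevated CO2, with controls of 6.15 in E. globulus and 11.08 in E. grandis. The fall was larger in E. grandis by at least 1 in 5 of the 6 genes, against 59 of the 214 genes that fell in both species (27.6%). Genes of such a family may share reads.

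Genes of lignin formation rose in most cases. All 6 laccase genes rose in both species, against 41.9% of the 461, by a median of 3.13 in E. globulus and 2.39 in E. grandis. At 10 °C in elevated CO2, 3 laccase genes were at least 1 higher in E. globulus and 1 at least 1 lower. Over the 461 genes these shares were 26.9% and 11.3%. The laccase median was 0.79 against 0.30 over the 461 genes. Laccase 14 (Eucgr.F02653) had 10.33 in E. globulus and 5.84 in E. grandis at 10 °C in elevated CO2, against 8.09 in E. globulus and 4.09 in E. grandis in the controls. Laccase 1 (Eucgr.B00870) had the reverse order, 5.69 in E. globulus and 8.59 in E. grandis at 10 °C in elevated CO2, against 1.72 in E. globulus and 6.20 in E. grandis in the controls. In both genes the species difference was already there in the controls.

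The other 4 laccase 14 genes each lie within 50 kb of the next and differed less. Eucgr.F02644 stood at 11.12 in E. globulus and 10.10 in E. grandis at 10 °C in elevated CO2, having risen by 4.01 in E. globulus and 2.39 in E. grandis. Eucgr.F02648 stood at 11.98 in E. globulus and 10.88 in E. grandis, Eucgr.F02649 at 11.64 in E. globulus and 11.08 in E. grandis, and Eucgr.F02646 at 10.46 in E. globulus and 10.38 in E. grandis. All 4 control differences were within 1. The copies share a description, and the counting of reads that match several copies was not given in the sources used here.

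Of the 4 monolignol pathway genes, 3 rose in both species and 1 fell in both, against 41.9% and 46.4% of the 461. Cinnamate-4-hydroxylase (Eucgr.C00065), which makes p-coumarate, had 9.55 in E. globulus and 8.31 in E. grandis at 10 °C in elevated CO2, against 5.84 in E. globulus and 6.68 in E. grandis in the controls. Its rise was 3.71 in E. globulus and 1.63 in E. grandis. Arogenate dehydratase 1 (Eucgr.E04043), which makes phenylalanine, rose by 1.63 in E. globulus and 1.57 in E. grandis. Elicitor-activated gene 3-2 (Eucgr.K01941), an alcohol dehydrogenase of the cinnamyl family, was 1.64 lower in E. globulus, at 4.30 in E. globulus and 5.93 in E. grandis. The gene that fell, described as cytochrome P450 98A3 (Eucgr.G03199), is named after the enzyme that hydroxylates p-coumaroyl esters. It had 4.22 in E. globulus and 0.73 in E. grandis at 10 °C in elevated CO2, against 5.73 in E. globulus and 6.22 in E. grandis in the controls. Its E. grandis value lies near the floor, and with 8 added on the linear scale its species difference went from 3.49 to 1.46.

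The 3 peroxidase genes took different directions. Eucgr.A01385 rose in both species to 12.07 in E. globulus and 11.20 in E. grandis. Eucgr.I01176 fell in both and was 2.69 higher in E. globulus at 10 °C in elevated CO2, at 5.96 in E. globulus and 3.27 in E. grandis. Eucgr.A01166 rose by 1.40 in E. globulus and fell by 1.43 in E. grandis. No gene of cellulose or hemicellulose synthesis or of xyloglucan enzymes and expansins stood in both tables. For cellulose and hemicellulose synthesis, 12 genes stood in the E. globulus table and 5 other genes in that of E. grandis. For xyloglucan enzymes and expansins the numbers were 19 and 12. Of all genes in the E. globulus and E. grandis tables, 13.7% and 29.7% were shared, so an absence from such short lists says little. The E. grandis table held 0 genes of arabinogalactan and fasciclin proteins and 0 secondary wall and vessel regulators. No gene of those lists could therefore be shared.

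Among the MYB factors and the UDP-glycosyltransferases, all but 1 gene rose in both species, against 41.9% of the 461. All 12 MYB factor genes rose in both, by a median of 1.99 in E. globulus and 2.27 in E. grandis, and their median species difference at 10 °C in elevated CO2 was 0.30, the same as over the 461 genes. Of these, 2 were at least 1 higher in E. globulus and 1 at least 1 lower, against 26.9% and 11.3% of the 461. Myb domain protein 15 (Eucgr.K03262), known for cold and defence responses, had 9.02 in E. globulus and 6.69 in E. grandis at 10 °C in elevated CO2, with controls of 4.61 in E. globulus and 4.29 in E. grandis. Myb domain protein 113 (Eucgr.F02842), an anthocyanin activator, stood at 6.76 in E. globulus and 7.83 in E. grandis. The myb domain genes Eucgr.C00826 and Eucgr.E01031, named after a flavonol regulator of Arabidopsis, differed by 0.31 and 0.29.

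Flavonol synthase 1 (Eucgr.L00738), which completes flavonols, rose by 4.06 in E. globulus and 4.24 in E. grandis and kept its gap. It stood at 6.17 in E. globulus and 8.79 in E. grandis at 10 °C in elevated CO2, and at 2.11 in E. globulus and 4.55 in E. grandis in the controls. UDP-glycosyltransferases, which attach sugars to flavonoids and other small molecules, rose in both species in 9 of 10 genes. At 10 °C in elevated CO2, 1 was at least 1 higher in E. globulus, 1 at least 1 lower and 8 lay within 1, with a median of 0.26. Over the 461 genes these shares were 26.9%, 11.3% and 61.8%. UDP-glucosyl transferase 85A3 (Eucgr.F03601) had the highest difference, at 9.13 in E. globulus and 7.94 in E. grandis. Flavonoid glucosyltransferase 78D2 (Eucgr.A02964) differed by 0.34.

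Serine carboxypeptidase-like proteins, some of which transfer acyl groups onto sugar esters, rose in both species in 6 of 9 genes and fell in both in 3. Over the 461 genes these shares were 41.9% and 46.4%. The median species difference of these 9 genes was 0.80. At least 1 higher in E. globulus were 3 genes and at least 1 lower was 1, against 26.9% and 11.3% of the 461. Serine carboxypeptidase-like 18 (Eucgr.C00146) stood at 11.77 in E. globulus and 10.59 in E. grandis at 10 °C in elevated CO2, against 8.20 in E. globulus and 8.09 in E. grandis in the controls. Another gene of the same description (Eucgr.G01198) had the lowest difference, at 8.81 in E. globulus and 10.07 in E. grandis.

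Photosynthesis genes split into a rising and a falling group that both species shared. The 3 Chlorophyll A-B binding family genes, whose family holds antenna and light-stress proteins, had the largest shared rises of the described genes with no group at 0. Eucgr.B01008 stood at 12.92 in E. globulus and 13.85 in E. grandis at 10 °C in elevated CO2, against 6.80 in E. globulus and 7.69 in E. grandis in the controls. Eucgr.B01896 stood at 11.79 in E. globulus and 13.05 in E. grandis, with controls of 6.25 in E. globulus and 6.43 in E. grandis. Eucgr.B01007 stood at 10.35 in E. globulus and 12.89 in E. grandis, with controls of 5.87 in E. globulus and 8.11 in E. grandis. E. grandis was the higher species in all 3 genes and in both conditions. With the shift of 0.57 taken off, Eucgr.B01008 and Eucgr.B01896 stay negative at 10 °C in elevated CO2, the second at -0.69, while the control difference of Eucgr.B01896, which was -0.19, turns positive.

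The 6 genes of named antenna and photosystem subunits fell in both species and stood higher in E. globulus at 10 °C in elevated CO2. Of the 461 genes, 46.4% fell in both species and 64.2% stood higher in E. globulus in that condition. Light harvesting complex of photosystem II 5 (Eucgr.F04099) had 11.83 in E. globulus and 10.58 in E. grandis at 10 °C in elevated CO2, against 13.05 in E. globulus and 12.48 in E. grandis in the controls. Photosystem II light harvesting complex gene 2.2 (Eucgr.A01047) had 12.26 in E. globulus and 11.27 in E. grandis, with controls of 13.41 in E. globulus and 13.33 in E. grandis. The remaining subunits differed by 0.44 to 1.01, with E. globulus higher.

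All 6 genes of cold and dehydration proteins fell in E. grandis, while 4 of them fell less in E. globulus and 2 rose there. Of all genes in the E. grandis table, 70.1% were lower than in its control. C-repeat/DRE binding factor 1 (Eucgr.A02831) had 5.39 in E. globulus and 3.30 in E. grandis at 10 °C in elevated CO2, against 6.45 in E. globulus and 8.13 in E. grandis in the controls. C-repeat-binding factor 4 (Eucgr.A02822) had 5.28 in E. globulus and 4.47 in E. grandis, with controls of 6.67 in E. globulus and 9.25 in E. grandis. The CBF genes Eucgr.A02831 and Eucgr.A02822 thus fell after 35 days at 10 °C in elevated CO2. Their falls were 1.06 and 1.39 in E. globulus and 4.83 and 4.77 in E. grandis. The other 2 CBF genes of the 6 rose in E. globulus and fell in E. grandis. These were C-repeat/DRE binding factor 2 (Eucgr.D01925), described above, and a second C-repeat-binding factor 4 gene (Eucgr.A02826). Eucgr.A02826 stood at 4.97 in E. globulus and was listed at 0 in E. grandis at 10 °C in elevated CO2. Its controls were 3.85 in E. globulus and 5.30 in E. grandis. The difference between changes was at least 1 in all 6 genes, against 29.7% of the 461. In the 2 that rose in E. globulus this follows from the choice of the genes. Eucgr.A02822, Eucgr.A02826 and Eucgr.A02831 lie in a row, each within 50 kb of the next. The galactinol synthase genes Eucgr.B01791 and Eucgr.B01793 are neighbours too. Such genes may share reads, which was not tested, so the 6 are not separate cases.

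Galactinol synthase 2, which starts the making of raffinose sugars, was represented by Eucgr.B01791 and Eucgr.B01793. Eucgr.B01791 stood at 6.08 in E. globulus and 6.10 in E. grandis at 10 °C in elevated CO2, against 7.84 in E. globulus and 8.94 in E. grandis in the controls. Eucgr.B01793 stood at 5.48 in E. globulus and 5.57 in E. grandis, with controls of 6.71 in E. globulus and 8.12 in E. grandis. The species met at the same level in these genes, from controls that were higher in E. grandis. The median species difference of the 6 genes was 0.87 at 10 °C in elevated CO2.

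Among the 5 heat shock genes 4 fell in both species and 1 rose in both, against 46.4% and 41.9% of the 461. Apart from the DnaJ-domain gene described above, none differed by 1 between species. Heat shock transcription factor A2 (Eucgr.C03424), an activator of chaperone genes, had 9.05 in E. globulus and 8.46 in E. grandis at 10 °C in elevated CO2, with controls of 10.23 in E. globulus and 9.87 in E. grandis. The HSP20-like gene Eucgr.L02712 rose to 7.55 in E. globulus and 8.45 in E. grandis.

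Receptor kinases at the cell surface fell in both species in 14 of 19 genes, against 46.4% of the 461, and many ended higher in E. globulus. Of the 19 genes, 10 were at least 1 higher in E. globulus at 10 °C in elevated CO2 and 1 at least 1 lower. Over the 461 these shares were 26.9% and 11.3%. The median was 1.02 against 0.30 over the 461. Wall-associated kinase 2 (Eucgr.L03704), which binds pectin, had 6.71 in E. globulus and 3.00 in E. grandis at 10 °C in elevated CO2, against 8.01 in E. globulus and 6.02 in E. grandis in the controls. The PR5-like receptor kinase genes Eucgr.H02301 and Eucgr.H02661 were 2.75 and 2.55 higher in E. globulus. The BRI1-associated receptor kinase gene Eucgr.A02282 had 5.88 in E. globulus and 3.55 in E. grandis, with controls of 7.30 in E. globulus and 6.70 in E. grandis. A leucine-rich repeat receptor kinase (Eucgr.L02210) was the only one at least 1 lower in E. globulus, at 4.59 in E. globulus and 5.97 in E. grandis. Receptor kinases numbered 169 in the E. globulus table and 118 in the E. grandis table, so the 19 are 11.2% and 16.1% of them.

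Defence proteins outside the receptor kinases were few. The 3 genes of MLP-like proteins, relatives of pathogenesis-related proteins, were each at least 1 lower in E. globulus at 10 °C in elevated CO2. Of the 461 genes, 11.3% were. An MLP-like protein gene (Eucgr.H01080) rose to 4.60 in E. globulus and 7.60 in E. grandis, against 0.62 in E. globulus and 5.54 in E. grandis in the controls. A second gene with the same description (Eucgr.A00133) rose to 4.25 in E. globulus and 6.16 in E. grandis. The third MLP-like protein gene (Eucgr.B02916) was listed at 0 in E. globulus and stood at 3.39 in E. grandis, with controls of 4.57 in E. globulus and 7.37 in E. grandis. In all 3 genes E. grandis was also higher in the controls, by at least 2 on the log2 scale.

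Cytochrome P450 enzymes, which oxidise hormones and specialised metabolites, held some of the widest differences in both directions. Of 10 genes, 5 were at least 1 higher in E. globulus at 10 °C in elevated CO2 and 2 at least 1 lower. Over the 461 genes the shares were 26.9% and 11.3%. The median of the 10 genes was 0.45. The median turns to -0.47 when the genes with a mean under 5 over the 4 groups are left out. The family 82 subfamily C genes went both ways. Eucgr.F02404 had 6.64 in E. globulus and 3.99 in E. grandis, with controls of 8.07 in E. globulus and 7.56 in E. grandis. Eucgr.L00957 had 3.61 in E. globulus and 6.96 in E. grandis, with controls of 6.77 in E. globulus and 9.58 in E. grandis. The family 81 subfamily D gene Eucgr.F00178 rose to 5.87 in E. globulus and 9.11 in E. grandis, against 4.54 in E. globulus and 6.95 in E. grandis in the controls.

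Jasmonate genes were mixed in direction. Of 8 genes, 4 lay within 1 between species, against 61.8% of the 461. Another 3 were at least 1 higher in E. globulus at 10 °C in elevated CO2 and 1 at least 1 lower, against 26.9% and 11.3%. The median of the 8 genes was 0.57. The TIFY domain gene Eucgr.F02456, of the family of jasmonate repressors, had 10.92 in E. globulus and 9.20 in E. grandis, with controls of 7.89 in E. globulus and 6.31 in E. grandis. Oxophytodienoate-reductase 3, a step of jasmonate synthesis, rose in both species in both of its genes. Eucgr.C03214 stood at 5.55 in E. globulus and 4.94 in E. grandis, and Eucgr.L02184 at 6.63 in E. globulus and 7.77 in E. grandis. Lipoxygenase 1 genes fell in both species, and lipoxygenase 2 (Eucgr.L01891) rose by 1.29 in E. globulus and fell by 1.31 in E. grandis.

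Ethylene response factor 1 (Eucgr.H03088) rose to 8.62 in E. globulus and 7.45 in E. grandis, against controls of 4.61 in E. globulus and 4.72 in E. grandis. Redox responsive transcription factor 1 (Eucgr.I01153), another factor of that family, fell to 8.42 in E. globulus and 7.25 in E. grandis, against 9.63 in E. globulus and 12.41 in E. grandis in the controls. Its species difference thus went the other way in the controls, at -2.78. Among auxin genes, an efflux carrier gene (Eucgr.D01141) was 1.78 lower in E. globulus and a dormancy/auxin associated gene (Eucgr.H04561) 1.14 higher.

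Transporters of the MFS, MATE and ABC families, which move metabolites and drugs across membranes, rose in nearly all cases. Of 19 genes, 17 rose in both species, against 41.9% of the 461, and 17 lay within 1 between species, against 61.8%. None was at least 1 higher in E. globulus at 10 °C in elevated CO2 and 2 were at least 1 lower, against 26.9% and 11.3%. The median species difference was -0.31, which becomes 0.26 with the shift of 0.57 taken off. The 2 lower genes were neighbours of the Major facilitator superfamily. Eucgr.B00401 had 7.18 in E. globulus and 9.00 in E. grandis at 10 °C in elevated CO2, with controls of 4.51 in E. globulus and 5.75 in E. grandis. Eucgr.B00402 had 7.33 in E. globulus and 9.15 in E. grandis, with controls of 5.66 in E. globulus and 5.93 in E. grandis.

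Clock and day-length genes lay within 1 between species in 6 of 9 cases, against 61.8% of the 461. At 10 °C in elevated CO2, 1 was at least 1 higher in E. globulus and 2 at least 1 lower, against 26.9% and 11.3%. The higher gene is the TIFY domain gene Eucgr.F02456, which is also counted among the jasmonate genes above. The median of the 9 genes was -0.19, which becomes 0.38 with the shift taken off. Flavin-binding kelch repeat F box 1 (Eucgr.G02098), which times flowering signals, fell to 10.47 in E. globulus and 11.31 in E. grandis. Cryptochrome 3 (Eucgr.C03997) rose to 6.42 in E. globulus and 8.11 in E. grandis. Cycling DOF factor 2 (Eucgr.G02493) rose to 9.34 in E. globulus and 9.56 in E. grandis.

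**Figure D4:**
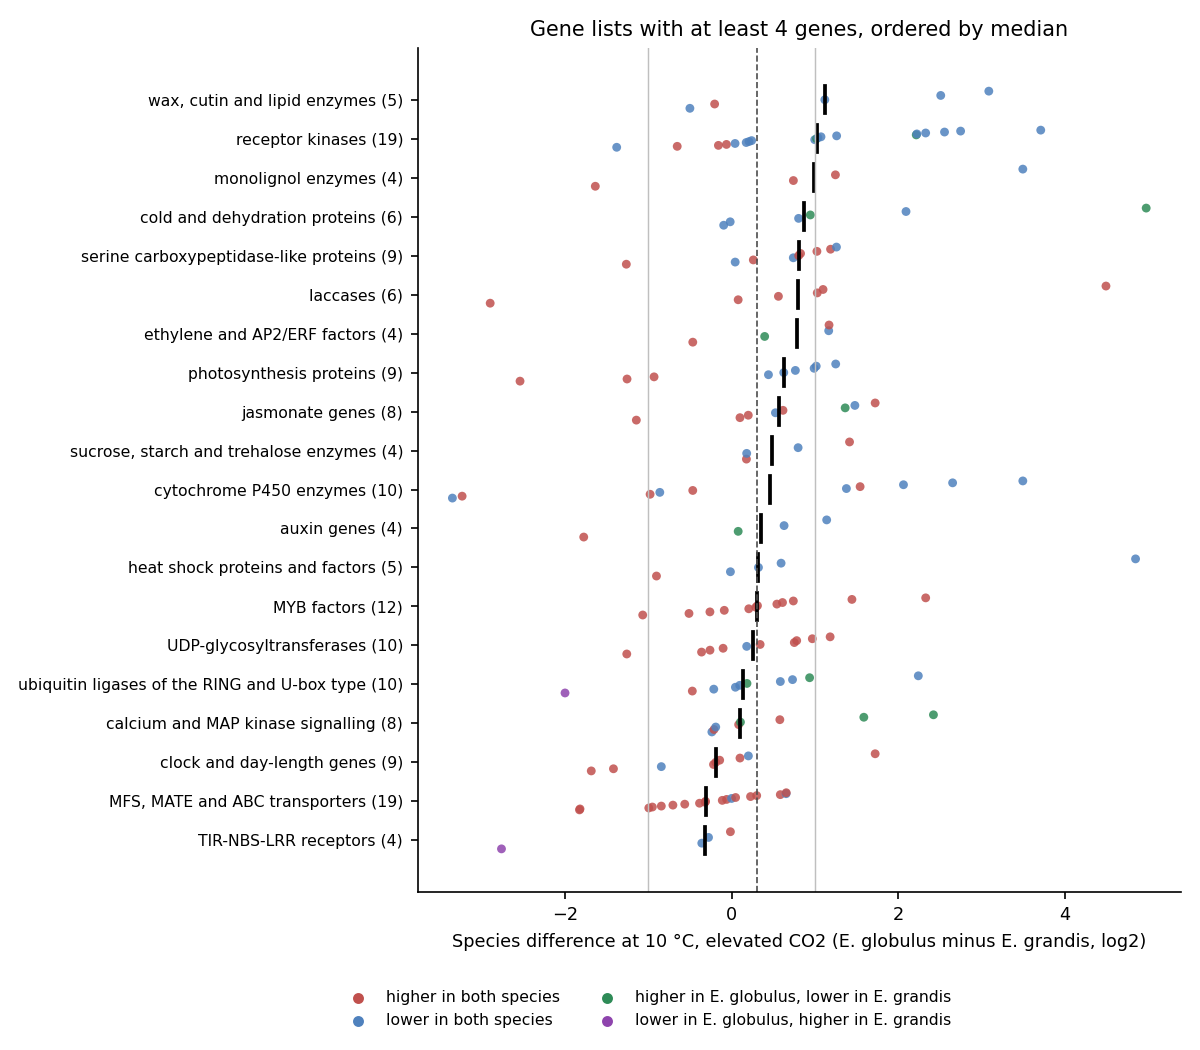
Species difference at 10 °C in elevated CO2 (E. globulus minus E. grandis, log2) for the 20 gene lists with at least 4 of the 461 genes, with 1 point per gene coloured by the direction of its changes, a black bar at the list median, a dashed line at the median of the 461 genes (0.30) and grey lines at 1 and -1. Receptor kinases lie mostly to the right, and the MFS, MATE and ABC transporters within 1 except for 2 genes; the medians below 0 turn positive when the control shift of 0.57 is taken off.

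Of the 5 wax, cutin and lipid genes, 4 fell in both species and 1 rose in both, against 46.4% and 41.9% of the 461. At 10 °C in elevated CO2, 3 of the 5 were at least 1 higher in E. globulus, against 26.9% of the 461. Their median species difference was 1.12 there and 0.92 in the controls. Single genes moved either way from the controls to 10 °C in elevated CO2. The species difference went from 3.90 to 2.51 for Eucgr.K02114 and from 1.89 to 3.09 for Eucgr.G02998. A long-chain fatty alcohol dehydrogenase gene (Eucgr.K02114) fell to 6.25 in E. globulus and 3.74 in E. grandis, against 11.22 in E. globulus and 7.33 in E. grandis in the controls. A lipid-transfer family gene (Eucgr.G02998) stood at 9.65 in E. globulus and 6.56 in E. grandis, with controls of 11.17 in E. globulus and 9.28 in E. grandis. 3-ketoacyl-CoA synthase 10 (Eucgr.C03177), which lengthens fatty acids for the cuticle, was 1.12 higher in E. globulus.

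Sugar genes changed in the same direction in both species. Of the 4 sucrose, starch and trehalose genes, 2 rose in both species and 2 fell in both, against 41.9% and 46.4% of the 461. The genes named here are ones that rose. Of the 4, 1 was at least 1 higher in E. globulus at 10 °C in elevated CO2, against 26.9% of the 461. It was the glycosyl hydrolase family 32 gene Eucgr.A02888, at 10.46 in E. globulus and 9.04 in E. grandis. That family includes invertases, which split sucrose. An invertase-like gene (Eucgr.G02484) rose to 10.74 in E. globulus and 10.56 in E. grandis. The Nodulin MtN3 family gene Eucgr.F03230, of the sugar exporter family, rose to 8.93 in E. globulus and 8.64 in E. grandis.

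Some of the largest shared changes lay outside these lists. A haloacid dehalogenase-like hydrolase gene (Eucgr.D02150) rose to 9.82 in E. globulus and 9.08 in E. grandis, against 5.61 in E. globulus and 4.26 in E. grandis in the controls. The undescribed Eucgr.B02524 fell to 3.19 in E. globulus and 1.20 in E. grandis, against 8.39 in E. globulus and 7.43 in E. grandis in the controls. A polyketide cyclase/dehydrase gene (Eucgr.L02592) fell to 0.23 in E. globulus and 2.56 in E. grandis, against 5.57 in E. globulus and 7.37 in E. grandis in the controls. Germin 3 (Eucgr.F04417), a cell wall glycoprotein named here after its values had been seen, had the largest rise of the 461 in E. globulus. It reached 9.97 in E. globulus and 9.99 in E. grandis at 10 °C in elevated CO2, against 2.09 in E. globulus and 7.25 in E. grandis in the controls.

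In 13 of the 461 genes at least 1 of the 4 groups was listed at 0, which in tables without counts may be a failed estimate, so no fold is given for these. E. globulus had a 0 in 7 of them and E. grandis in 9. Besides those already described, an O-methyltransferase gene (Eucgr.K00955) was listed at 0 in E. grandis and stood at 4.93 in E. globulus at 10 °C in elevated CO2, with controls of 7.54 in E. globulus and 5.77 in E. grandis. A PEBP family gene (Eucgr.B01458), of the family of flowering signals, was listed at 0 in both controls and stood at 1.68 in E. globulus and 3.10 in E. grandis at 10 °C in elevated CO2. An ethylene-forming enzyme gene (Eucgr.K00742) stood at 4.71 in E. globulus and 5.18 in E. grandis at 10 °C in elevated CO2, against 0 in E. globulus and 0.36 in E. grandis in the controls. Leaving out the 13 genes gave 120 genes at least 1 higher and 48 at least 1 lower in E. globulus.

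Values at 10 °C in ambient CO2 were listed in both species for 118 of the 461 genes, which allows the same species contrast without added CO2. There 17 genes (14.4%) were at least 1 higher in E. globulus and 20 (16.9%) at least 1 lower, against 14.2% and 22.1% of all 353 genes with both values. Of the 39 genes past 1 in either direction at 10 °C in elevated CO2, 32 had the same direction in ambient CO2 and 19 were past 1 the same way. The 12 genes that were lower in E. globulus kept their direction in all 12 cases, and 7 of the 27 genes that were higher in E. globulus did not. Over the 118 genes the 2 differences had a Pearson correlation of 0.65 and a Spearman correlation of 0.61, across genes that share the same 4 groups, given as a description. These 118 genes are those that the authors also selected over temperatures in ambient CO2, so they favour genes that respond to temperature.

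**Figure D5:**
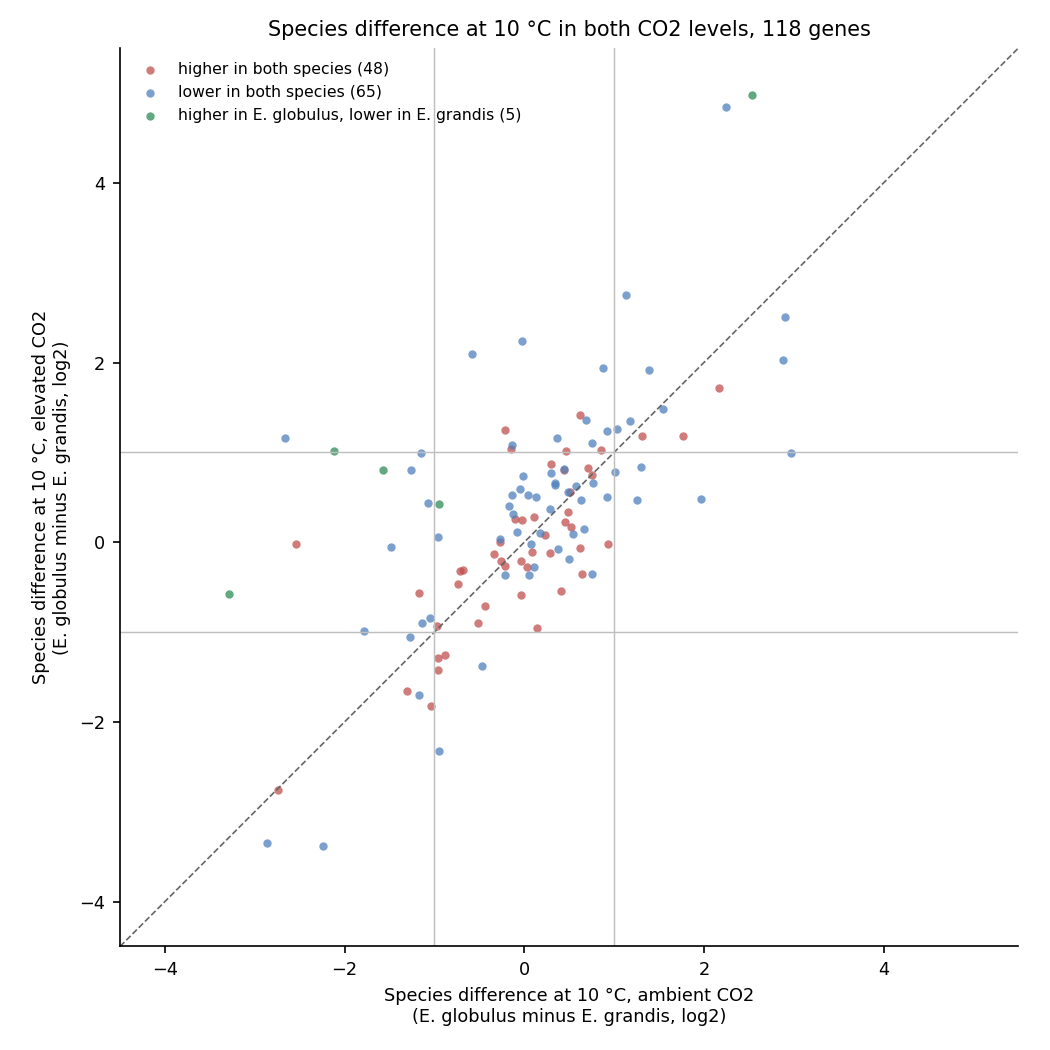
Species difference at 10 °C (E. globulus minus E. grandis, log2) in ambient CO2 on the horizontal axis and in elevated CO2 on the vertical axis for the 118 genes with all 4 values, coloured by the direction of the change from the control to 10 °C in elevated CO2, with the dashed line marking equal differences. Of the 39 genes past 1 on the vertical axis, 32 lie on the same side of 0 on the horizontal axis, and 4 of the 5 genes that rose in E. globulus and fell in E. grandis lie left of 0 and above the line.

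At 10 °C most E. globulus values in elevated CO2 lay near those in ambient CO2. The shift between elevated and ambient CO2 at 10 °C was within 1 in 374 of the 409 genes listed in E. globulus and in 90 of the 122 listed in E. grandis. Only genes that the authors also selected over temperatures in ambient CO2 are listed, and the listed genes are not the same in each species. The part of CO2 was not tested. The chaperone gene Eucgr.I01393 stood at 5.45 in E. globulus and 3.20 in E. grandis at 10 °C in ambient CO2, so the species difference was 2.25 there and 4.85 in elevated CO2. Some genes turned round between the CO2 levels. CRINKLY4 related 3 (Eucgr.G03061) stood at 4.61 in E. globulus and 6.72 in E. grandis at 10 °C in ambient CO2, so E. grandis was higher there and E. globulus in elevated CO2. Redox responsive transcription factor 1 (Eucgr.I01153) turned in the same way, at -2.66 in ambient and 1.16 in elevated CO2. Other wide differences were alike in both CO2 levels. The cytochrome P450 gene Eucgr.L00957 was 2.86 lower in E. globulus in ambient CO2 and 3.35 lower in elevated CO2, and the fatty alcohol dehydrogenase gene Eucgr.K02114 was 2.90 higher in ambient CO2 and 2.51 higher in elevated CO2.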

How the data were processed

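RNA from stems was extracted with CTAB, per the labels' protocols. Per the submitters' processing notes the tools included Bowtie2 and DESeq, with neither versions nor their roles, and a genome build was not given in the sources used here. Group values as deposited are normalised by the authors on a log2 scale with a floor of 0, per the file headers. The deposited absolute fold (a ratio) and log2 fold change compare group values, and the selection used a corrected p of 0.05 and a fold of 2, per the file headers. A group value found in several of the 8 tables was the same in each (8144 compared, 0 differed, tolerance 0.0001), including the E. globulus column in a table named for E. grandis.

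Differences were computed with pandas 2.3.3 in Python 3.11.15 and checked on simulated data. No test was run, and p-values, errors and depth cannot be given from 1 value per group. Samples were grouped by title. The 38 gene lists match words in the descriptions and were set after the descriptions had been read, and 31 hold at least 1 of the 461 genes. The genes and lists were chosen with earlier results of these data known. The rule for naming genes took the highest and lowest species difference of each list and the 6 highest and 6 lowest of all described genes. It also took the 5 largest differences between changes each way and the 5 largest shared rises and falls. Not every gene that this rule took is described above. Genes with a group at 0 were left out of this choice and are described apart. Other genes named are further members of a described group, picked after their values had been seen. Alternatives changed the threshold, the treatment of low values and zeros, and the centring. No sequence is given.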

Additional observations from a re-analysis of the deposited data

How the results depend on the processing

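No paired analysis was possible because each group has 1 deposited value and no test was run. For the same reason no replicate could be left out, and neither depth nor replicate error is known. At a threshold of 2 on the log2 scale, 39 genes were higher and 15 lower in E. globulus at 10 °C in elevated CO2, 6 and 54 in the controls and 6 and 7 at 10 °C in ambient CO2. With both changes past 2 as well, 62 genes rose in both species, 44 fell in both, 4 rose in E. globulus and fell in E. grandis, and 0 did the reverse, while the change in E. globulus exceeded that in E. grandis in 76 genes and was below it in 5. Adding 8 on the linear scale left 3 genes that fell in E. globulus and rose in E. grandis. Keeping the 405 genes with a mean of at least 5 left 3 such genes and 16 with a change at least 1 below that of E. grandis. Centring on the median control difference of the 2453 genes gave 203 genes higher and 29 lower in E. globulus at 10 °C in elevated CO2, 116 and 71 in the controls and 44 and 9 at 10 °C in ambient CO2. Centring on the 1735 genes outside the species-pair table, chosen after seeing the data, gave 200 and 30, 113 and 72, and 40 and 9. All 12 counts stayed within 1.5 times their value when the 13 genes with a group at 0 were left out, or when centred on the median control difference of the 461 genes, the second also chosen after seeing the data. Centring on the median of all genes moved the values of 16 genes taken by the naming rule and the medians of 12 gene lists.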

Other observations

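Some of the 461 genes lie next to each other. With ends within 50 kb, 112 of the 461 genes formed 51 groups with 61 neighbouring pairs, and 46 of the pairs (75.4%) had changed in the same directions, against 40.1% of all pairs of the 461 genes. The absolute gap between the species differences of neighbours had a median of 0.77, against 1.07 over all pairs of the 461 genes. A run of 6 undescribed genes from Eucgr.G00481 to Eucgr.G00488 fell in both species and was 1.56 to 3.28 higher in E. globulus at 10 °C in elevated CO2. Eucgr.G00483 stood at 9.50 in E. globulus and 6.22 in E. grandis there, against 11.14 in E. globulus and 9.66 in E. grandis in the controls. Whether such neighbours share reads was not tested.

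At 30 °C in elevated CO2, 71 of the 461 genes had a value in both species. Of the 26 that differed by at least 1 at 10 °C in elevated CO2, 25 had the same direction at 30 °C in elevated CO2. These 71 genes are those that the authors also selected in both species at 30 °C in elevated CO2 against the same controls. The count therefore does not speak for the other genes. Eucgr.B01007, a Chlorophyll A-B binding family gene, was 2.20 lower in E. globulus at 30 °C in elevated CO2 and 2.54 lower at 10 °C in elevated CO2.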
